A study of Mus musculus with 12 samples.

Results

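The posterior Hoxa and Hoxd genes comprised 9 members, Hoxa9, Hoxa10, Hoxa11 and Hoxa13 on chromosome 6 and Hoxd9, Hoxd10, Hoxd11, Hoxd12 and Hoxd13 on chromosome 2. They were examined in cultured MSCs (mesenchymal stem cells) of the mouse, stromal cells with the capacity to become bone, cartilage or fat. A region of chromatin was assigned to a member when it overlapped the gene body in the GENCODE annotation or the 10 kb on either side of it. By this rule the members held 4 of the 31617 H3K27ac regions and 2 of the 28047 H3K27me3 regions of the series. Because neighbouring members shared regions, the 6 regions, and not the 9 genes, were the units that could be compared. The members were chosen from earlier results of these data, in which the H3K27ac region over Hoxa13 stood out between the ages. The H3K27ac differences between old and young cells at the members are therefore given as a description, with no test. Regions of other genes and all H3K27me3 regions are given with the test fitted across the whole table.

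The chromatin marks were measured by CUT&RUN, which sequences the DNA that a nuclease cuts free around an antibody bound to the mark. H3K27ac is acetylation of lysine 27 of histone H3 and is found at active promoters and enhancers. H3K27me3 is trimethylation of the same residue, which is laid down by Polycomb complexes at repressed developmental genes. The 12 libraries formed 4 groups of 3 replicates, namely MSCs of young mice (3 to 5 months) and of old mice (18 to 22 months) for each mark. All cells were cultured at 2% oxygen, and the labels named no strain, genotype or treatment and no bone of origin. Each sample was split between both antibodies according to the labels, so the same-numbered libraries of the marks within an age came from the same cells. Nothing in the labels said that the samples came from separate animals, so p-values measure only the spread between these samples.

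Hox genes encode homeodomain transcription factors that are arranged in clusters and give cells their position along the body axis and the limb. Within a cluster the genes are numbered in the order of their expression along the body axis, and genes 9 to 13 are called posterior. In the limb, the paralogous groups 9 and 10 are associated with the upper segment, group 11 with the middle segment and group 13 with the hand and foot. Adult stromal cells keep part of this positional code, and Polycomb complexes hold the genes that are not used in a repressed state. Hoxa13 and Hoxd13 are the terminal genes of their clusters. Hottip is a long non-coding RNA that starts next to Hoxa13 on the other strand and is known for its link to activation of the 5′ Hoxa genes. Evx1 and Evx2 are homeobox genes that lie beyond the terminal Hox genes.

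The members fell into different chromatin settings, and the sequence upstream of 1 start site of each kind is shown. Hoxa9 carried H3K27ac with no H3K27me3 region in its window, Hoxa13 and Hoxd10 lay under regions of both marks, and Hoxd13 had H3K27me3 with no H3K27ac region in its window. Each sequence is the 250 bases before the start site that RefSeq gives for the gene on GRCm38.p6, in the direction of transcription. CpG dinucleotides, the sites at which unmethylated DNA is known to attract Polycomb and activating complexes, are in capitals. The sequences lay at chr6:52227371-52227620 on the minus strand for Hoxa9, at chr6:52260881-52261130 on the minus strand for Hoxa13, at chr2:74691641-74691890 on the plus strand for Hoxd10 and at chr2:74667975-74668224 on the plus strand for Hoxd13.
Hoxa9: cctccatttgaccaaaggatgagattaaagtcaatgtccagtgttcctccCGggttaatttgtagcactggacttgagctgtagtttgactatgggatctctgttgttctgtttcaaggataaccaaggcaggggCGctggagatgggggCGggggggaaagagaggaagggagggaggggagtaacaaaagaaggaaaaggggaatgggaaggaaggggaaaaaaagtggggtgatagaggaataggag
Hoxa13: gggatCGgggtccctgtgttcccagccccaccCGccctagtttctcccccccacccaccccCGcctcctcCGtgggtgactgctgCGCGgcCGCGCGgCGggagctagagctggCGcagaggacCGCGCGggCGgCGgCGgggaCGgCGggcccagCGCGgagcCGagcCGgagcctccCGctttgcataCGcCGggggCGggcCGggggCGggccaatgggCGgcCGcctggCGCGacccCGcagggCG
Hoxd10: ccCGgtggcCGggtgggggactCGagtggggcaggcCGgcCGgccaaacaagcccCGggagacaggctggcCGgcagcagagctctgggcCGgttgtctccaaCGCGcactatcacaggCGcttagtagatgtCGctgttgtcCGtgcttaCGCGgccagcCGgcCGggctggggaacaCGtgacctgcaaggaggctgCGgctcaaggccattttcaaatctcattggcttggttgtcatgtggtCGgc
Hoxd13: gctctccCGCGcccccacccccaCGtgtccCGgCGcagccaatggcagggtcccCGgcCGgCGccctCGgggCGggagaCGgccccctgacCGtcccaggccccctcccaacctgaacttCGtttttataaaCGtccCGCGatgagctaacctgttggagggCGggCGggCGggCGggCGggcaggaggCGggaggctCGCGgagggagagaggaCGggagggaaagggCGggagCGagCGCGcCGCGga
These stretches held 3 CpGs for Hoxa9, 35 for Hoxa13, 20 for Hoxd10 and 31 for Hoxd13.

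All 9 members were found in the RefSeq promoter table, with 11 promoters, since Hoxa10 and Hoxd11 had 2 each. Over the 300 bases from 250 before to 50 after the start, these promoters held between 4 and 45 CpGs, and 9 of 11 were above the median of 7 CpGs over all 32851 promoters in the table. The Hoxa13 promoter, with 45 CpGs, was above 98.1% of all promoters, and the Hoxd13 promoter, with 37, was above 94.4%. The Hoxa9 promoter and the distal Hoxd11 promoter held only 4 CpGs each, fewer than the median. The letters TATAAA, searched on both strands, were present in 2 of the 11 member promoters, that of Hoxd13 and the proximal one of Hoxa10, and in 13.6% of all promoters. CCAAT, on both strands, was present in 5 of 11 member promoters and in 37.4% of all promoters. CpG number did not follow the H3K27ac state of the promoter, since Hoxd13, with 37, had no H3K27ac region and Hoxa9, with 4, lay in the strongest one.

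With an assumed length of 0.5 kb per read value, the H3K27ac libraries held between 2750953 and 5541429 reads and the H3K27me3 libraries between 3622108 and 9947515. Signal is given as deposited after scaling of the libraries of a mark to each other, so that the median region differed little between the ages (median log2 difference −0.003 for H3K27ac and −0.008 for H3K27me3). Without this scaling the median region was lower in old cells by 0.117 and 0.126, respectively. Signal was not divided by region length, and densities per kb are given where regions are compared. The label of the cells was checked against marker genes. H3K27ac regions lay over the start sites of 8 of 8 MSC markers, among them Pdgfra, Ly6a and Prrx1. The summed H3K27ac signal of those regions ranged from 766 to 815 in young and from 758 to 840 in old samples. Of the 6 blood markers reported, only Runx1, which is also used by skeletal cells, lay under H3K27ac at the start site. Ptprc, Spi1, Itgam, Cd3e and Vav1 did not. Away from the start sites, Spi1, Itgam and Vav1 also had H3K27ac in their windows. In all, 4 of the 6 had 12 such regions in their windows, and the longest at Spi1 measured 65.9 ± 4.76 in young and 61.8 ± 4.00 in old (SD, n = 3 each). Of 4 endothelial markers only Pecam1 lay under H3K27ac at the start site, with a signal of 6.53 to 8.22 in young and 7.18 to 11.0 in old samples. The 6 H3K27ac regions in the windows of the endothelial markers had log2 differences from 0.12 to 0.71 (median 0.38). Of these 6, 3 did not overlap between the ages, beside 14.5% of all regions, and 0 were called. Their part in the differences below was not tested. Of 3 skeletal muscle markers 0 lay under H3K27ac at the start site.

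The marks met at the posterior end of the Hoxa cluster. An H3K27ac region of 39.5 kb ran from 52207501 to 52247000 on chromosome 6 (mm10) and contained the whole of Hoxa9, Hoxa10 and Hoxa11 and the start sites of Hoxa3, Hoxa6 and Hoxa7. It was directly followed by an H3K27ac region of 17 kb, from 52247001 to 52264000, which contained the whole of Hoxa13 and the start of Hottip. The border between them existed because the authors gave the first the state of both ages and the second the state of young. An H3K27me3 region of 105.5 kb ran from 52243501 to 52349000, over the start sites of Hoxa11, Hoxa13, Hottip and Evx1. The Hoxa13 H3K27ac region lay within it along its entire length, whereas the Hoxa9 to Hoxa11 region shared only its last 3.50 kb, or 8.86% of its length. Hoxa9 and the start of Hoxa10 lay outside H3K27me3 regions.

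The Hoxd cluster was arranged differently, with an H3K27me3 region of 244.5 kb that ran from 74580501 to 74825000 on chromosome 2 and covered all 5 posterior members, the other Hoxd genes and Evx2. Within it lay a young-state H3K27ac region of 14 kb, from 74685501 to 74699500, over the whole of Hoxd10, the start of Hoxd9 and the 3′ end of Hoxd11. A short H3K27ac region of 2.00 kb, from 74704001 to 74706000, lay over the start of Hoxd8 and reached the windows of Hoxd9 and Hoxd10 from a distance of 3.80 kb. The start sites of Hoxd11, Hoxd12 and Hoxd13 carried H3K27me3 and no H3K27ac region. In all, 6 of 9 members had an H3K27ac region over a start site, 7 of 9 an H3K27me3 region, and 4 of 9 (Hoxa11, Hoxa13, Hoxd9 and Hoxd10) had both.

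**Figure D1:**
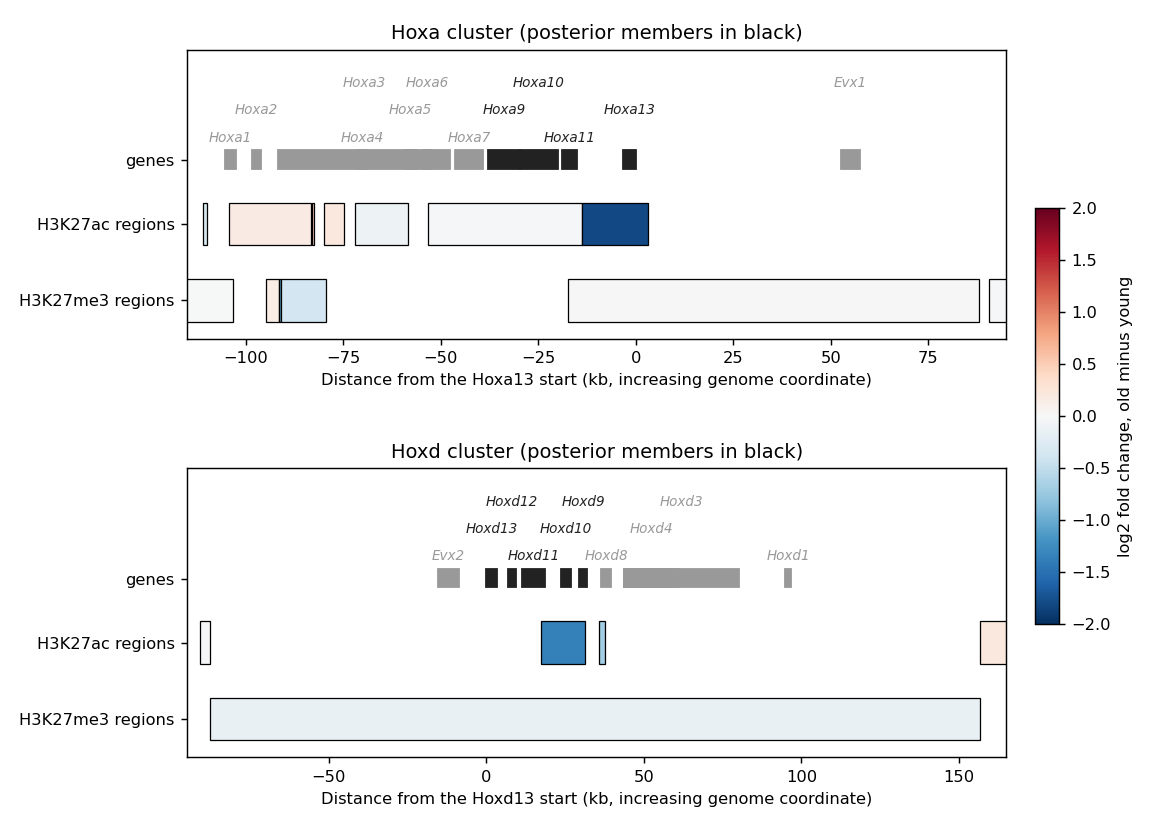
Map of the Hoxa (top) and Hoxd (bottom) clusters, with distance from the start of Hoxa13 or Hoxd13 in kb on the horizontal axis and rows for genes, H3K27ac regions and H3K27me3 regions. Boxes are regions of the deposited tables, coloured by the log2 fold change of old against young. The Hoxa13 region (−1.81) and the Hoxd9 and Hoxd10 region (−1.36) are the dark blue H3K27ac boxes, and both lie above pale H3K27me3 boxes.

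The H3K27ac region over Hoxa13 was the posterior Hox region with the largest age difference. Its scaled signal was 55.5, 54.2 and 45.7 in young replicates 1 to 3, and 17.5, 15.7 and 10.7 in old replicates 1 to 3. The groups did not overlap, and the highest old value (17.5) was far below the lowest young one (45.7). The means were 51.8 ± 5.33 (SD, n = 3) in young and 14.7 ± 3.54 (SD, n = 3) in old, so the young mean was 3.54 times the old mean. On the scale of log2(signal + 0.5) the difference of old minus young was −1.81 (SE 0.18), which is a description because this contrast chose the members. The values rested on 170, 94 and 139 reads in the young and 44, 20 and 21 reads in the old libraries. Among the 5152 H3K27ac regions with at least the mean signal of this region, none had a lower log2 fold change.

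The H3K27ac region over Hoxd9 and Hoxd10 showed the same direction. Its scaled signal was 27.4, 19.6 and 24.7 in young and 9.97, 8.65 and 8.15 in old replicates, and the groups did not overlap. Young samples averaged 23.9 ± 3.97 (SD, n = 3) and old samples 8.92 ± 0.936 (SD, n = 3), a ratio of 2.68 of young to old and a log2 difference of −1.36 (SE 0.22). Reads numbered 84, 34 and 75 in the young and 25, 11 and 16 in the old libraries. Among the 10097 regions with at least its mean signal, its log2 fold change ranked as the lowest but 1, after the Hoxa13 region.

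The H3K27ac region over Hoxa9, Hoxa10 and Hoxa11 had nearly equal signal at both ages. It measured 172, 166 and 154 in young and 149, 160 and 179 in old replicates. The highest and the lowest of the 6 values were both from old samples, so the young range lay within the old one. The means were 164 ± 9.25 (SD, n = 3) and 163 ± 15.2 (SD, n = 3), and the log2 difference was −0.02 (95% interval from −0.19 to 0.15). The border to the Hoxa13 region, which the state calls of the authors set, lay between the gene bodies of Hoxa11 and Hoxa13.

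The short Hoxd8 region held few reads, from 10 to 13 in young and from 2 to 8 in old libraries. Its scaled signal was 4.25, 5.77 and 3.95 in young and 2.79, 1.57 and 4.08 in old replicates. Old replicate 3 lay above young replicate 3, so the groups overlapped. The log2 difference was −0.69 (95% interval from −1.54 to 0.15), an interval that held both 0 and the difference seen at Hoxd9 and Hoxd10.

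**Figure D2:**
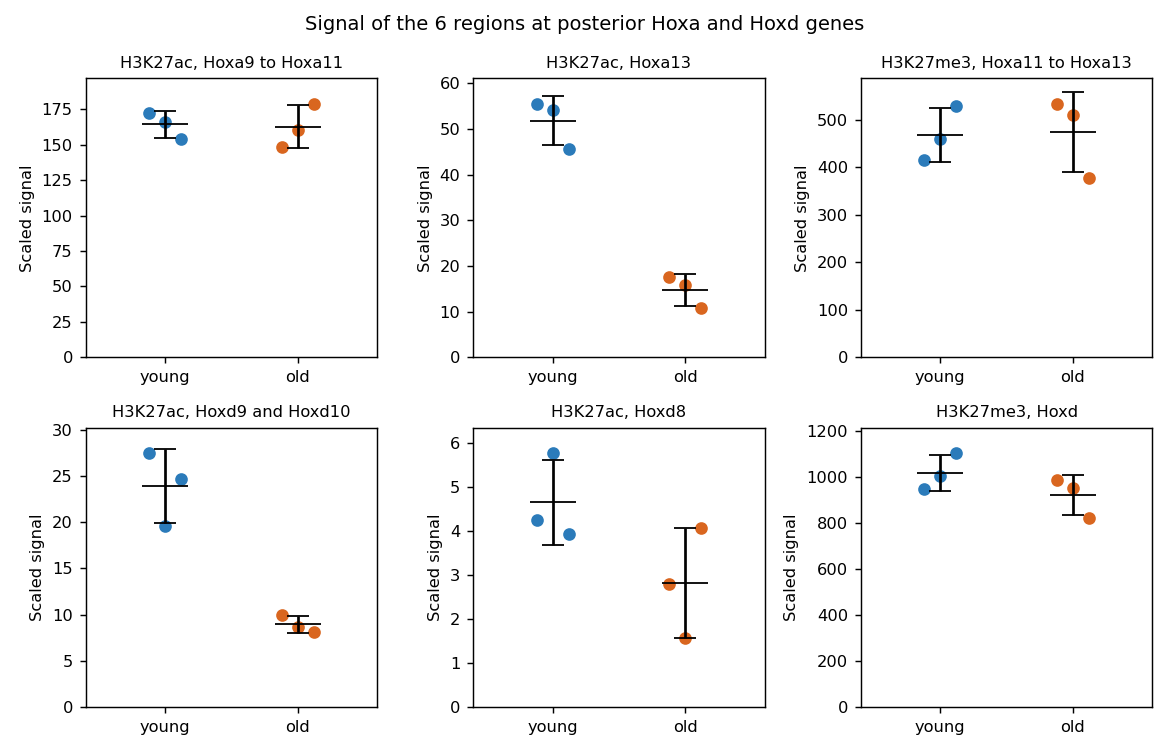
Scaled signal of the 4 H3K27ac and 2 H3K27me3 regions of the posterior Hoxa and Hoxd genes in each of 3 young (blue) and 3 old (orange) samples, with means and SD in black. Vertical axes start at 0 and differ between panels. Young and old points are apart in the Hoxa13 (45.7 to 55.5 against 10.7 to 17.5) and the Hoxd9 and Hoxd10 panels and overlap in the other 4.

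All 4 member regions of H3K27ac had a negative log2 difference, with a median of −1.03, beside a median of −0.003 over all 31617 regions, of which 50.4% were negative. With the moderated test of limma across all regions (two-sided, adjusted p under 0.05 after Benjamini-Hochberg adjustment), 2 of the 4 were among the regions called, beside 0.0822% of all regions called. The same 2 regions did not overlap between the ages, beside 14.5% of all regions. The choice of the members used this contrast, and both regions were listed with the young state by the authors, so nothing is read from these counts or shares about the members. The called regions over Hoxa13 and over Hoxd9 and Hoxd10 were the longest of the 91 regions with the young state, at 17 and 14 kb, beside a median of 2.00 kb in that state and 6.50 kb for the next longest.

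The nearest H3K27ac regions outside the windows lay at very different distances. The nearest H3K27ac region before the Hoxa windows, at a distance of 10.6 kb and over the start of Hoxa4, measured 21.5 ± 3.56 in young and 19.9 ± 2.67 in old (SD, n = 3 each). The nearest one after them, 139.1 kb away, measured 6.43 ± 1.12 and 4.40 ± 1.44. On either side of the Hoxd windows, the region over Lnpk, 77.8 kb away, measured 6.87 ± 0.648 in young and 6.95 ± 1.93 in old, and that over Mtx2, 114.8 kb away, 15.99 ± 2.23 and 18.5 ± 2.00. In each of these 4 regions the ages overlapped.

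**Figure D3:**
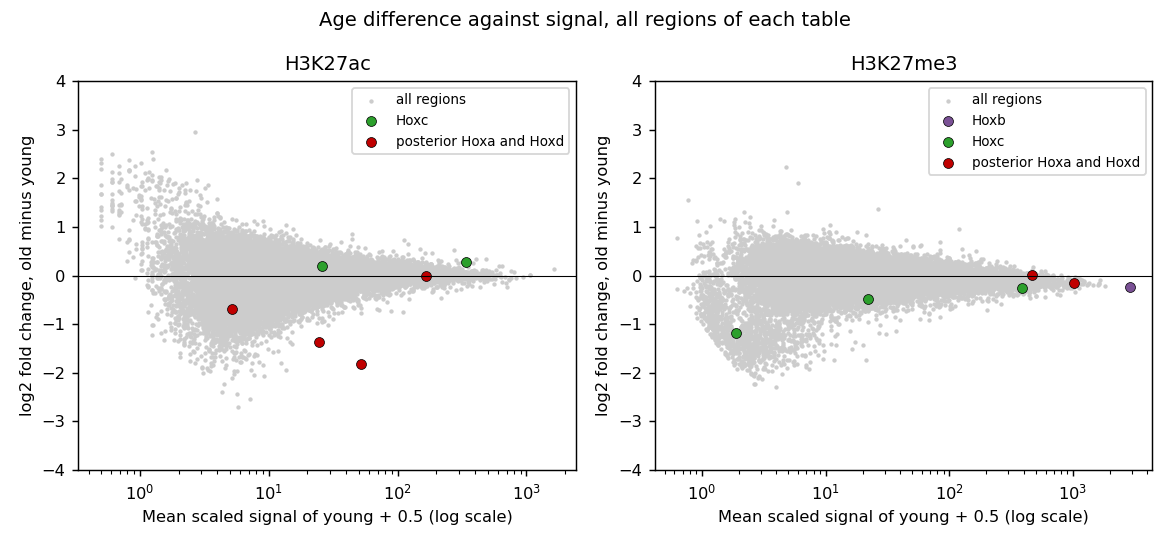
Difference between ages (log2 fold change, old minus young, vertical axis) against the mean scaled signal of the young samples (log axis) for every region of the H3K27ac (left) and H3K27me3 (right) table. The posterior Hoxa and Hoxd regions are in red, Hoxc in green and Hoxb in purple. The Hoxa13 (−1.81) and Hoxd9 and Hoxd10 (−1.36) points lie below the grey cloud of regions of like H3K27ac signal, while the 2 red H3K27me3 points lie near 0.

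Measured over whole regions, H3K27me3 at the same genes did not change detectably with age. The region over Hoxa11, Hoxa13 and Evx1 measured 415, 460 and 529 in young and 534, 510 and 378 in old replicates. The highest and the lowest values were both from old samples. The means were 468 ± 57.6 (SD, n = 3) in young and 474 ± 84.2 (SD, n = 3) in old, with a log2 difference of 0.01 (SE 0.12, 95% interval from −0.24 to 0.25, limma adjusted p = 0.982 over the whole table). Among the 213 H3K27me3 regions with at least the mean signal of this region, its log2 fold change ranked 200 from the lowest. Most regions of such signal thus had a lower value. The region was measured only as a whole, and the stretch that also carried the Hoxa13 H3K27ac region made up 16.1% of it.

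The H3K27me3 region over the Hoxd cluster measured 947, 1007 and 1104 in young and 989, 954 and 824 in old replicates. Old replicates 1 and 2 lay within the young range, so the groups overlapped. The means were 1019 ± 79.1 and 922 ± 86.8 (SD, n = 3 each), and the log2 difference was −0.15 (SE 0.08, 95% interval from −0.31 to 0.02, limma adjusted p = 0.432). Among the 26 regions with at least the mean signal of the Hoxd region, its log2 fold change ranked 15 from the lowest. Neither of the 2 regions was called, beside 0.488% of all H3K27me3 regions, and neither had an unadjusted p under 0.05. Count tests on the recovered reads with edgeR and DESeq2 also called 0 of the 2. Neither region was without overlap between the ages, beside 19.1% of all regions. The members were chosen with earlier results of these data known and the H3K27me3 libraries came from the same cells, so these tests are not independent of the choice in the strict sense.

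The H3K27me3 regions of the posterior genes were among the most heavily marked of the table. Their density was 4.43 per kb (Hoxa) and 4.17 per kb (Hoxd) in young samples, above 99.5% and 99.3% of all H3K27me3 regions. The H3K27ac density of the Hoxa9 to Hoxa11 region, 4.16 per kb in young, lay above 98.6% of H3K27ac regions. That of the Hoxa13 region was 3.05 per kb in young, above 86.8% of regions, and 0.862 per kb in old. The Hoxd9 and Hoxd10 region reached only 1.71 per kb in young, above 18.1% of regions, and 0.637 per kb in old. The members thus spanned from strong to weak acetylation, while both of their H3K27me3 regions were dense. All 6 regions were rich in CpGs, with 30.7 to 109 per kb in the H3K27ac regions, beside a median of 11.2, and 17.5 and 18.1 per kb in the H3K27me3 regions, beside a median of 8.60.

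The balance of the marks was expressed for each sample as the log2 ratio of H3K27ac density to H3K27me3 density over the regions in the window of a member. It could be formed for 7 of 9 members, since Hoxa9 had no H3K27me3 region and Hoxd13 no H3K27ac region in its window. As it contains the H3K27ac values that chose the members, it is a description with no test. Its zero has no absolute meaning, because the antibodies and tables of the marks differ, so only the shift between ages can be read.

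At Hoxa13 the balance was −0.27, −0.45 and −0.90 in young and −2.29, −2.39 and −2.51 in old replicates. The groups lay far apart, and the means were −0.54 ± 0.33 (SD, n = 3) and −2.40 ± 0.11 (SD, n = 3), a shift of −1.86 towards H3K27me3. H3K27ac itself moved by −1.85, and H3K27me3, over its whole region of 105.5 kb, by 0.01. Hoxa10 and Hoxa11, whose windows held the same regions, had a mean balance of −0.21 ± 0.27 in young and −0.50 ± 0.36 in old (SD, n = 3 each). Their groups overlapped, with old replicate 3 at −0.09.

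In the Hoxd cluster, all members with both marks had the Hoxd9 and Hoxd10 H3K27ac region and the same H3K27me3 region in their windows. Their shifts are therefore not separate observations. At Hoxd9 and Hoxd10, which shared their regions, the balance was −0.97, −1.38 and −1.34 in young and −2.34, −2.61 and −2.14 in old replicates, with a shift of −1.14. At Hoxd11 and Hoxd12, whose windows held only the Hoxd9 and Hoxd10 region, it was −0.98, −1.56 and −1.36 in young and −2.51, −2.66 and −2.53 in old replicates, with a shift of −1.27. The groups did not overlap at any of these 4 genes. H3K27ac moved by −1.28 and −1.41 in these sums, respectively, and H3K27me3 by −0.15. The H3K27me3 value is that of the whole 244.5 kb region, of which the Hoxd9 and Hoxd10 H3K27ac region covered 5.73%. A local H3K27me3 difference was not measured. The median shift over the 7 members was −1.14. The young and old values were apart at 5 of 7 members, which follows from the same 2 H3K27ac regions that differed above. They were likewise apart at Hoxd8, which shares those of Hoxd9, and, in the opposite direction, at 6 of 7 Hoxc genes. The 6 Hoxc genes all had the same H3K27ac region of 103.0 kb in their windows, so they are not separate observations. The share of all genes with balances apart was not computed.

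**Figure D4:**
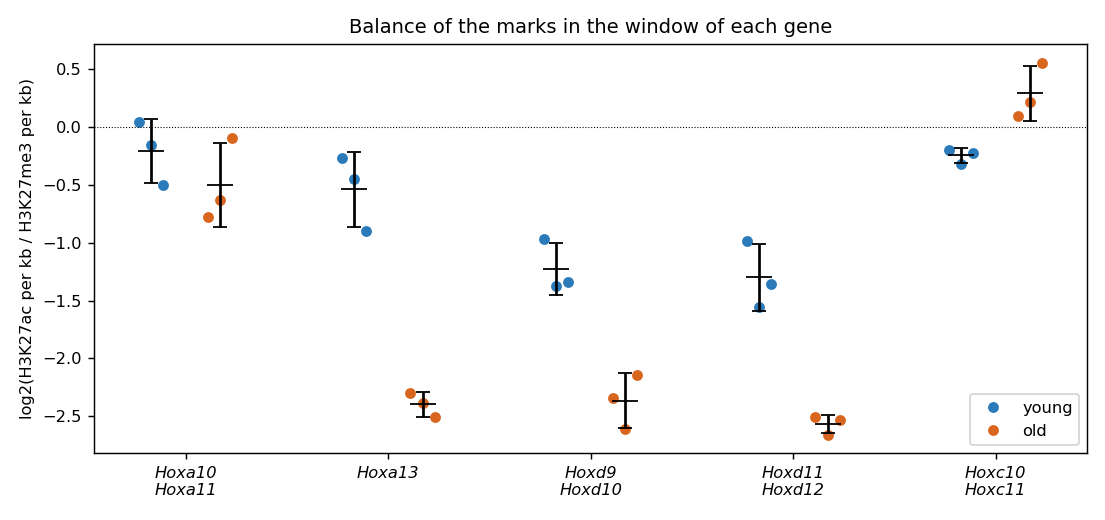
Balance of the marks, as log2 of H3K27ac signal per kb over H3K27me3 signal per kb (vertical axis), in each young (blue) and old (orange) sample, with mean and SD in black, 3 samples per group. Genes whose windows hold the same regions share a column, and Hoxc10 and Hoxc11 are shown beside the posterior Hoxa and Hoxd genes. The old points lie below the young ones at Hoxa13 (−2.40 against −0.54) and the Hoxd genes, overlap at Hoxa10 and Hoxa11, and lie above at Hoxc10 and Hoxc11.

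The other Hox genes were compared by the same window rule. The 11 anterior Hoxa and Hoxd genes shared 3 of their 8 H3K27ac regions with the posterior ones. The other 5 had a median log2 difference of 0.17, with 2 lower in old, 0 called by limma and 0 without overlap between the ages. The 10 Hoxb genes had 0 H3K27ac regions and lay under a single H3K27me3 region with a log2 difference of −0.23. The 9 Hoxc genes had 2 H3K27ac regions. The larger, of 103.0 kb and over the starts of Hoxc4 to Hoxc11, measured 341 ± 7.17 in young and 414 ± 24.7 in old (SD, n = 3 each). Its groups did not overlap and the log2 difference was 0.28 (SE 0.06, limma adjusted p = 0.0535), which missed the threshold. Of the 3 H3K27me3 regions at Hoxc, 0 were called and the median log2 difference was −0.49. The balance at Hoxc10 and Hoxc11 was −0.25 ± 0.07 in young and 0.29 ± 0.24 in old (SD, n = 3 each), and so moved in the opposite direction to that at Hoxa13. The difference between the clusters was not tested, as the Hoxa13 contrast chose the members.

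The 12 flanking genes included Hottip, whose start lay in the Hoxa13 H3K27ac region and whose values are those given above. Without that region they held 29 H3K27ac regions, of which 14 were lower in old and 0 were called, with a median log2 difference of 0.01. Their 14 H3K27me3 regions included those over the members through Evx1 and Evx2. The other 12 held 0 called regions and had a median of −0.09.

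The genes that encode Hox cofactors, the 9 Meis, Pbx and Pknox genes, had 39 H3K27ac regions with a median log2 difference of 0.11, and 0 were called. Of their 25 H3K27me3 regions, 20 were lower in old and 4 were called lower, all 4 at Meis2, beside 0.488% called in the whole table. Meis2 encodes a homeodomain protein that binds DNA together with Hox proteins. The H3K27me3 region over its start, on chromosome 2 from 116056501 to 116068500, measured 20.9 ± 1.46 in young and 5.92 ± 0.977 in old (SD, n = 3 each), with a log2 difference of −1.74 (limma adjusted p = 0.000176). The authors gave this region the state of young from these same libraries, so its p is not independent of that call. Further called regions adjoin it up to 116077500, so these and the region over the start are not separate observations. The remaining called region, from 116008001 to 116010500, lay apart from them (log2 difference −1.73, limma adjusted p = 0.0387) and also had the state of young. H3K27ac over the same start measured 29.6 ± 6.90 and 29.2 ± 1.43 (SD, n = 3 each), with a log2 difference of 0.004. Over the Meis2 start, H3K27me3 thus differed between the ages while H3K27ac was nearly equal. This is not set against Hoxa13, where the H3K27ac contrast chose the members. H3K27me3 at Hoxa13 was measured only over its whole region of 105.5 kb, so a local difference there was not tested.

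Of 12 limb patterning genes, 6 had an H3K27ac region, and the 13 regions had a median log2 difference of −0.33 with 9 lower and 0 called. Tbx4 and Pitx1 encode transcription factors of the hindlimb and Tbx5 one of the forelimb. The H3K27ac region over the Tbx4 start measured 41.8, 35.8 and 32.2 in young and 26.7, 18.9 and 19.4 in old replicates. All old values were below all young ones, and the log2 difference of −0.75 missed the threshold (SE 0.17, limma adjusted p = 0.0607). H3K27me3 over Tbx4 measured 117, 157 and 158 in young and 191, 226 and 163 in old replicates, with a log2 difference of 0.43 (limma adjusted p = 0.121). H3K27ac at Pitx1 measured 39.2 ± 5.15 in young and 32.2 ± 11.5 in old (SD, n = 3 each) and overlapped between the ages. The start of Tbx5 carried no H3K27ac region, and its H3K27me3 region measured 474 ± 25.1 in young and 394 ± 43.5 in old (SD, n = 3 each, limma adjusted p = 0.136). Of the 17 H3K27me3 regions of the limb list, 15 were lower in old, and 1, over Bmp7, was called lower (log2 difference −0.38, limma adjusted p = 0.0259), beside 51.4% lower and 0.488% called in the whole table. The whole table is not matched in signal to this list, and a share matched in signal was not computed. Among the 213 regions with at least the signal of the H3K27me3 region at Hoxa13, most had a log2 fold change below its 0.009 (rank 200 from the lowest). These 213 are not a match for the list either. It holds weaker regions, such as that over Shh (164 ± 13.7 in young, SD, n = 3).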

How the data were processed

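CUT&RUN libraries for H3K27ac and H3K27me3 of young and old MSCs (3 replicates each) were grouped by their labels. Per the labels' processing notes, Bowtie2, Picard and the mm10 (GRCm38) build were used, with no versions. The region caller is not given in the sources used here, and the publication supplied with the series does not report these libraries. For each mark the authors deposited 1 table of signal per region and replicate, with regions called in steps of 500 bp on both ages together and a state of young, old or both. The deposited signal is named RPKM, but 100% of values were whole multiples (tolerance 0.01) of the smallest value above 0 of their sample, whatever the region length. That smallest value was taken as 1 read, which gave the reads per region. Depth was then computed by taking it as the RPKM of 1 read over 0.5 kb, a length that was assumed and not tested.

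Signal was scaled by the median of ratios and log2(signal + 0.5) was fitted with limma 3.58.1 (R 4.3.3) with variance trend and robust moderation, on all regions and all 6 samples of a mark, without a filter, two-sided, with Benjamini-Hochberg adjustment over the table. Fold changes on this scale understate those of weak regions. Sums over a window were divided by the summed length of its regions. Regions of a member overlapped its GENCODE vM21 gene body or 10 kb on either side. Start sites were those of the basic set. All members, whatever their values, and every region in their windows were named. The members and all lists were chosen with earlier results of these data known. Part of the blood marker list is not reported here. edgeR 4.0.16 and DESeq2 1.42.0 on the recovered reads, other scalings, pseudocounts, filters, windows, a replicate block and the omission of each replicate were tried as alternatives. Sequences came from RefSeq for GRCm38.p6 and were checked against the genome.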

Additional observations from a re-analysis of the deposited data

How the results depend on the processing

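The Hoxa13 and the Hoxd9 and Hoxd10 H3K27ac regions were lower in old under all 15 alternatives each (log2 differences from −1.95 to −1.61 and from −1.50 to −1.26). Both were called except under limma without trend and robust moderation, where 0 were called, and without young replicate 1, where the Hoxd9 and Hoxd10 region lost its call and 1 was left (range 1 to 2 over the omitted replicates). DESeq2 gave no adjusted p for 28810 of the 31617 regions, both of these included, so no call was made there. These calls are on the contrast that chose the members and support nothing about them. The median over the member regions, −1.03, was −1.36 without the lowest 25% of regions by mean signal, with the gene body alone and with only regions over a start site, since each leaves out the Hoxd8 region. The H3K27me3 region at Hoxa13 changed sign to −0.11 with signal as deposited, where the median of all regions fell too, and ranged from −0.084 (without old replicate 1) to 0.168 over the omitted replicates. It was uncalled throughout. The balance shift ranged from −1.27 to −1.01.

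Called regions in the whole tables, 26 for H3K27ac and 137 for H3K27me3, were 105 and 774 with signal as deposited, 14 and 71 with a pseudocount of 0.1, 0 and 35 with plain limma, 96 and 394 with edgeR, and 6 and 76 with DESeq2. They were 45 for H3K27ac with a pseudocount of 1, 81 for H3K27me3 without the lowest 25%, and from 2 (without young replicate 1) to 45 (without old replicate 1) for H3K27ac and from 10 (without young replicate 3) to 313 (without old replicate 2) for H3K27me3. A replicate block gave 81 and 309 calls, 2 H3K27ac and 0 H3K27me3 members among them. Whether the numbers pair young with old samples is not known. The correlation of deviations ran from −0.078 to 0.066 for same-numbered samples and from −0.128 to 0.133 for the others. Depth limits the Hoxd8 region most, with 2 reads in old replicate 2.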
